A study of Mus musculus with 16 samples.

Results

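The genes described here were 10 transcription factors that pattern the Wolffian and Müllerian ducts, *Pax2*, *Pax8*, *Emx2*, *Lhx1*, *Gata2*, *Gata3*, *Wt1*, *Msx1*, *Msx2* and *Tbx3*. They were taken by name from an RNA-seq table of 31274 genes, which gave the level of each gene as FPKM, the fragments mapped to it scaled by transcript length and by all mapped fragments. 9 of the 10 had a mean FPKM above 1, the minimum for testing, and passed it in each of the 4 groups. *Lhx1* did not pass it in any group.

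Seminal vesicles (SVs) of C57BL/6 male mice were collected at week 5, with 16 samples in 4 groups of 4. Wild-type (WT) mice and αERKO mice, which carry a disrupted oestrogen receptor gene *Esr1*, received corn oil vehicle (WT-veh and αERKO-veh) or 2 µg of diethylstilboestrol (DES) per pup per day (WT-DES and αERKO-DES). All pups were injected subcutaneously on days 1 to 5 after birth, so the vehicle groups carried the same injections in oil. DES is a synthetic oestrogen that activates the oestrogen receptor ERα. The study's methods describe pools of mice as the RNA source of WT-DES and individual mice as that of the other groups. They give fewer pools than the 4 WT-DES samples labelled, so these may not be 4 independent sources. WT pups came from purchased dams whereas αERKO pups came from heterozygous parents. The p-values below measure the spread between these samples.

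The Wolffian duct gives rise to the epididymis, vas deferens and SV of the male, and the Müllerian duct to the oviduct, uterus and upper vagina of the female. PAX2, PAX8, LHX1 and EMX2 act in the epithelium of both ducts and are needed for the ducts to form or persist, and GATA3 acts beside PAX2 and PAX8 in the growing Wolffian duct. WT1 marks the coelomic lining and mesenchyme of the urogenital ridge, while MSX1 and MSX2 are homeobox factors that respond to BMP signals and TBX3 is a T-box repressor of limb, mammary and urogenital development.

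The RefSeq table of promoters held start sites for 8 of the 10 genes, in 11 windows on GRCm38.p6. Below are the 250 bases before the start for the GATA genes, which fell together in WT-DES, and for *Pax8*, the member called between the vehicle groups. Capitals mark the GC box GGGCGG and the CCAAT box CCAAT on either strand. The printed *Gata2* window is chr6:88193641-88193890 on the plus strand, the *Gata3* window chr2:9878601-9878850 on the minus strand and the *Pax8* window chr2:24475600-24475849 on the minus strand. *Gata2* has another start, whose window (chr6:88198414-88198663) is not printed.
Gata2: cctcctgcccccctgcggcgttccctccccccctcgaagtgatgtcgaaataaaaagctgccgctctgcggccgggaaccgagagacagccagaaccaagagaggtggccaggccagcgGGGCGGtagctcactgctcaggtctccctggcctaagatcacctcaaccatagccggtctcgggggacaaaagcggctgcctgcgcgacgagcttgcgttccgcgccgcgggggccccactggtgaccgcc
Gata3: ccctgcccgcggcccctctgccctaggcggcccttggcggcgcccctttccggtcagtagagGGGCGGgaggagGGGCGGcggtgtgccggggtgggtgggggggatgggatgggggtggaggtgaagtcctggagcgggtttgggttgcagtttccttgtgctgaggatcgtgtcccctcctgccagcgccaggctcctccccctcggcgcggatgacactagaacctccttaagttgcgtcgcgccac
Pax8: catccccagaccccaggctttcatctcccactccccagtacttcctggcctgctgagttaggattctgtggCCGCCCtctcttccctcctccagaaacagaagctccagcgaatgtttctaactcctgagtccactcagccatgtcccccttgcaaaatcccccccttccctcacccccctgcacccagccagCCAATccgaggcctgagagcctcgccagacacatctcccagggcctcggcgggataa

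The printed *Gata2* and *Gata3* windows were rich in G and C, at 67.2% and 70% of bases, with 1 and 2 GC boxes, and that of *Pax8* held 60.4% G and C, 1 GC box and 1 CCAAT box. The printed *Gata2* window held no CCAAT box, although *Gata2* was among the members with a CCAAT box in a window. Of the 11 member windows, 9 held a GC box, which 32.7% of all 32851 windows of this length held, and 6 held a CCAAT box against 33.8% of all windows. Neither the palindromic oestrogen response element nor its shorter core AGGTCA was found in a member window, searched on both strands, where 0.0639% and 14.0% of all windows held them. The TATA box TATAAA, held by 12.4% of all windows, and the GATA motif AGATAA, held by 9.99%, were not found in them either. The core AGGTCA forms part of the longer element. These are matches of letters in 1 window per start and say nothing of binding.

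*Esr1* was lowest in the αERKO samples, at 1.30, 1.59, 1.75 and 1.43 FPKM in αERKO-veh and 0.91, 1.15, 1.51 and 1.64 FPKM in αERKO-DES, against 4.43, 4.55, 3.70 and 2.81 FPKM in WT-veh and 8.74, 19.64, 12.99 and 15.71 FPKM in WT-DES. The number of fragments per sample was not known, and summed FPKM per sample ran from 375207 to 437619 in WT-DES and from 479045 to 652708 in the other groups. WT-DES sample 1 stood apart, with a mean correlation across genes of 0.972 with its group, against 0.981 to 0.982 for the other WT-DES samples. Its summed level of 6 urothelial markers was 2089 FPKM against 138.4 to 319.5 in the other WT-DES samples, and that of 7 smooth muscle markers 3731 FPKM against 833.2 to 1309. Markers of several cell types moved with DES in WT. Of 11 SV secretion genes, which the labelled tissue should express, 10 were lower in WT-DES and none was at 0, with summed levels of 56940 to 65390 FPKM in WT-veh and 2573 to 8492 FPKM in WT-DES. Of 8 luminal and general epithelial markers 6 were lower (median summed level 2107 FPKM in WT-veh and 1078 FPKM in WT-DES), as were 5 of 7 smooth muscle markers (3251 and 1206 FPKM). In contrast, 6 of 8 basal and squamous epithelial markers (206.5 and 472.1 FPKM), 4 of 6 urothelial markers (169 and 297 FPKM), all 8 fibroblast markers (942.4 and 2232 FPKM), all 6 mesothelial markers (4.33 and 59.1 FPKM) and all 9 T cell markers (9.21 and 80.6 FPKM) were higher. The urothelial and mesothelial lists share 1 gene, *Upk3b*, without which 3 of 5 urothelial markers were higher. Also higher were 7 of 7 endothelial, 7 of 7 macrophage, 5 of 5 B cell, 5 of 6 mast cell and 5 of 7 adipose markers. Of 6 anterior prostate markers 5 were lower. Of the markers counted as higher, 3 basal and squamous, 2 mesothelial, 4 T cell, 5 B cell and 1 adipose genes passed the FPKM minimum through WT-DES alone. In bulk tissue, fewer cells of a type and less RNA per cell cannot be told apart.

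Neonatal DES exposure in WT mice moved 6 of the 9 tested factors, with *Gata2*, *Gata3* and *Tbx3* lower and *Pax8*, *Wt1* and *Msx2* higher than in the WT-veh group. A gene was called when limma gave a Benjamini-Hochberg adjusted p of at most 0.05 over all 15988 genes tested, the mean FPKM differed at least 1.5-fold, and it was above 1 in 1 of the 2 groups. The share of all tested genes that were called in this comparison was 52.7%, with 28.9% higher and 23.9% lower, so the members' count was near the background. For each of the 6 called factors the 4 WT-DES samples lay outside the range of the other 12 samples, as they did for 24.2% of all tested genes on the higher side and 24.0% on the lower side. Against WT-veh alone, 32.7% of all tested genes lay wholly above and 34.0% wholly below. Scaling mattered for the background. The share of higher genes among those called was 54.7%, and it became 79.2% when samples were set to equal totals without the 20 most abundant genes, which moved the median change of all genes by 0.39 on the log2 scale. The directions of the 6 called factors and their calls held under all 28 alternatives.

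**Figure D1:**
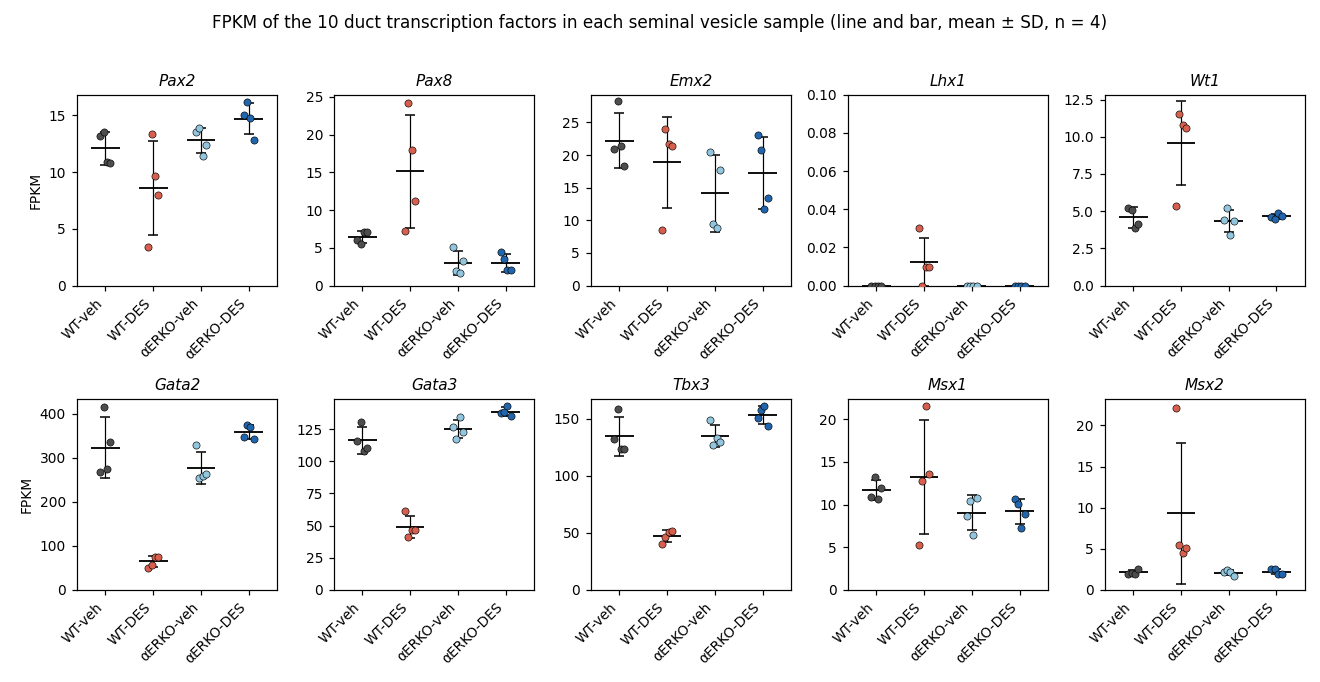
FPKM (vertical axis, linear from 0) of each of the 10 genes in the 16 samples, with 4 points per group, a line at the group mean and a bar of 1 SD on either side. *Gata2*, *Gata3* and *Tbx3* in WT-DES lie under all other samples (50.77 to 75.65 FPKM for *Gata2*), and *Lhx1* reaches no more than 0.03 FPKM.

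*Gata2* had the highest mean of the 10 factors in every group and had the largest fall in WT-DES. It encodes a zinc finger factor that opens chromatin beside steroid receptors and acts in urogenital and blood development. Levels were 268.48, 415.34, 273.67 and 335.44 FPKM in WT-veh and 50.77, 56.87, 75.65 and 75.46 FPKM in WT-DES. In αERKO-veh they were 329.87, 254.44, 257.99 and 263.85 FPKM, and in αERKO-DES 348.37, 374.19, 369.10 and 343.67 FPKM. All 4 WT-DES samples were therefore under the lowest of the other 12, at means of 64.7 ± 12.8 against 323 ± 68.5 FPKM in WT-veh (SD, n = 4). The fall was −2.30 ± 0.15 (SE) in log2(FPKM + 1), with a limma adjusted p of 7.28e-09, or 5.00-fold in the ratio of means. With DES the αERKO level was 0.38 ± 0.15 higher in log2(FPKM + 1), and the groups did not overlap, but the limma adjusted p of 0.141 did not pass. The DES effect in WT mice less the one in αERKO mice was −2.68 ± 0.21 (limma adjusted p 1.03e-07).

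*Gata3*, which encodes the GATA factor of the Wolffian duct and of luminal epithelia, fell by less than *Gata2*. WT-veh samples stood at 116.00, 130.63, 107.99 and 110.11 FPKM and WT-DES samples at 61.07, 40.92, 46.46 and 46.58 FPKM. The αERKO-veh samples stood at 126.48, 116.91, 134.22 and 122.56 FPKM and the αERKO-DES samples at 137.60, 138.52, 143.20 and 134.92 FPKM. WT-DES was again under all other samples, and αERKO-DES was above the other groups in every sample. The change in WT was −1.25 ± 0.10 in log2(FPKM + 1) (limma adjusted p 4.24e-08), a ratio of means of 0.420, and the difference between the genotypes was −1.40 ± 0.14 (7.65e-07). Under quantile normalization the fall was −0.75 and under equal totals without the 20 most abundant genes −0.82, both still called. The ratio of *Gata2* to *Gata3* FPKM within a sample lay between 2.31 and 3.18 in WT-veh and between 0.831 and 1.63 in WT-DES, with no overlap, and in αERKO mice it ran from 1.92 to 2.61 with vehicle and from 2.53 to 2.70 with DES.

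Reads at the *Gata3* locus (chr2:9857078-9890034, minus strand) also bear on overlapping transcripts. 4930412O13Rik lies on the opposite strand within the annotated *Gata3* gene, at chr2:9881252-9883921, and was at 69.21, 75.08, 64.84 and 48.66 FPKM in WT-veh and 11.07, 8.50, 10.69 and 9.27 FPKM in WT-DES. On the same strand, 9230102O04Rik (chr2:9883041-9889540) was at 24.50 to 32.39 FPKM in WT-veh and 8.69 to 12.70 FPKM in WT-DES. Both were lower in all WT-DES samples than in any other sample. Both lie upstream of the *Gata3* promoter window given above (chr2:9878601-9878850). They overlap the longer annotated gene but not a transcript from that RefSeq start. Whether reads were counted by strand is not given in the sources used here, so the shares of the overlapping genes are uncertain.

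*Tbx3*, the T-box repressor, was lower in WT-DES as well. The 4 WT-veh samples had 132.48, 158.53, 122.90 and 123.38 FPKM and the 4 WT-DES samples 40.01, 46.67, 50.23 and 51.54 FPKM. In αERKO mice the levels were 148.69, 126.98, 132.79 and 129.35 FPKM with vehicle and 150.13, 157.87, 161.02 and 143.48 FPKM with DES. All WT-DES samples lay under the other 12, and the αERKO groups overlapped each other. *Tbx3* fell by 1.49 ± 0.09 in log2(FPKM + 1) in WT-DES (limma adjusted p 4.88e-09), which was 2.85-fold in the ratio of means, while αERKO-DES differed from αERKO-veh by 0.19 ± 0.09 (0.223). The difference between the genotypes was −1.68 ± 0.13 (limma adjusted p 9.47e-08). Under quantile normalization the fall in WT was −0.98, and it was still called.

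The noncoding gene Tbx3os2, named for *Tbx3* (chr5:119670669-119684724, plus strand), was also lower. It was at 91.77, 103.48, 97.46 and 98.12 FPKM in WT-veh and 13.11, 15.97, 19.65 and 22.38 FPKM in WT-DES, a change of −2.42 ± 0.13 in log2(FPKM + 1) (limma adjusted p 1.50e-09). Its αERKO-veh levels, 80.75, 61.26, 68.25 and 68.58 FPKM, lay under all WT-veh samples, but at a ratio of means of 0.713 the difference did not reach 1.5-fold (limma adjusted p 0.0175). In αERKO-DES it was at 101.29, 94.52, 108.62 and 84.56 FPKM.

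The luminal and general epithelial list moved in the same direction as these 3 factors, with 6 of its 8 genes lower and 1 to 7 lower over the alternatives, and so did smooth muscle, with 5 of 7 lower and a median change of −1.24. Basal and squamous epithelial markers moved the other way, with 6 of 8 higher and a median change of 1.28, as did 4 of 6 urothelial markers. *Epcam*, the general epithelial adhesion gene, was lower by 0.60 in log2(FPKM + 1), and the median change of the 8 luminal and general epithelial markers was −0.80. That of the 11 SV secretion genes was −3.79. Anterior prostate markers also moved this way, with 5 of 6 lower and a median change of −4.90. Their summed levels were 3980 to 9590 FPKM in WT-veh and 30.41 to 387 FPKM in WT-DES. The part of these lists in the falls was not tested. Without WT-DES sample 1 the changes were −2.19 for *Gata2*, −1.36 for *Gata3* and −1.42 for *Tbx3*, all called.

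**Figure D2:**
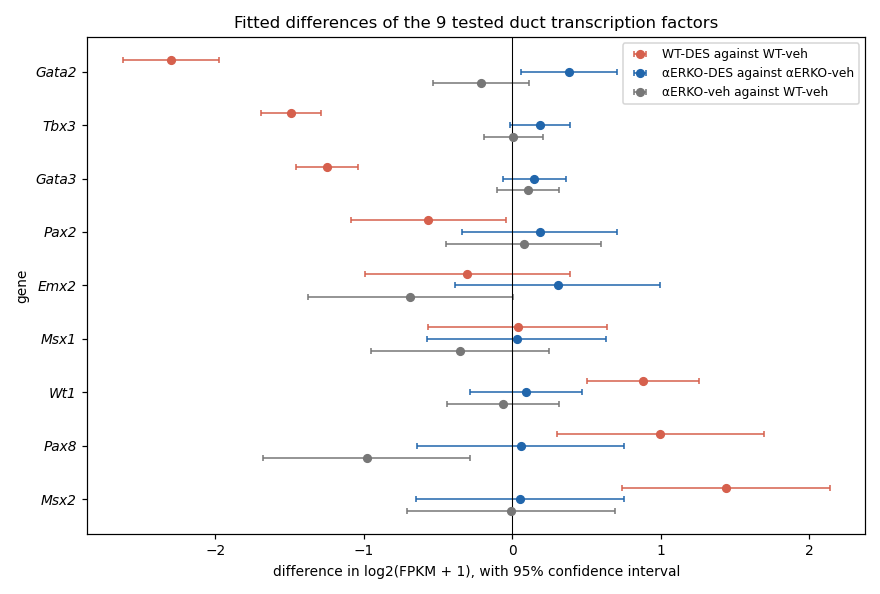
Fitted difference in log2(FPKM + 1) (horizontal axis) with its 95% confidence interval for each of the 9 tested genes in WT-DES against WT-veh, αERKO-DES against αERKO-veh and αERKO-veh against WT-veh. The 3 lowest points are *Gata2* (−2.30), *Tbx3* (−1.49) and *Gata3* (−1.25) in WT, and the αERKO-DES points lie between 0.03 and 0.38.

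*Pax8* rose with DES in WT mice, and it was lower in αERKO-veh by a call that some alternatives ended. PAX8 is a paired-box factor that remains in the epithelium of the adult oviduct, uterus and Wolffian derivatives and acts together with PAX2 in the embryo. It was at 6.03, 5.47, 7.13 and 7.15 FPKM in WT-veh and at 7.19, 24.15, 17.96 and 11.23 FPKM in WT-DES. The αERKO-veh samples were at 5.15, 1.89, 1.64 and 3.23 FPKM and the αERKO-DES samples at 4.43, 3.58, 2.03 and 2.07 FPKM. Every αERKO sample was thus under every WT sample. WT-DES was above all others, though its sample 1 passed the highest WT-veh sample by little (7.19 against 7.15 FPKM). The rise in WT was 1.00 ± 0.33 in log2(FPKM + 1) (limma adjusted p 0.0126), from 6.45 ± 0.83 to 15.1 ± 7.48 FPKM (SD, n = 4), and without WT-DES sample 1 it was 1.28 (0.00148).

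In vehicle-treated mice *Pax8* was the only member called between the genotypes, at −0.98 ± 0.33 in log2(FPKM + 1) for αERKO-veh against WT-veh (limma adjusted p 0.0392), a ratio of means of 0.462. The share of all tested genes called in this comparison was 7.12%, with 4.50% higher and 2.63% lower, and samples did not overlap for 12.6% on the higher side and 17.1% on the lower side. This call was lost in 11 of 28 alternatives, with a limma adjusted p of 0.0616 with no minimum on FPKM and of 0.0619 to 0.121 when any of WT-veh samples 1, 3 and 4 or αERKO-veh samples 2, 3 and 4 was left out. DES did not move *Pax8* detectably in αERKO mice (0.06 ± 0.33, limma adjusted p 0.942, 95% confidence interval −0.64 to 0.75). That interval uses 1 spread shared by all 4 groups, WT-DES included. The DES effect differed between the genotypes by 0.94 ± 0.46, which did not pass (limma adjusted p 0.0801), and it was called without WT-DES sample 1, at 1.23 (0.0150), and without αERKO-veh sample 3. With all samples it was called with sample weights, whose estimation stopped short of its tolerance, at 1.26 (0.00165), with median-ratio scaling, at 1.12 (0.0426), and at equal totals without the 20 most abundant genes, at 1.43 (0.0134). Between the DES groups, *Pax8* was 5.00-fold lower in αERKO-DES than in WT-DES (−1.92 ± 0.33 in log2(FPKM + 1), 8.03e-05).

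*Pax2*, the other paired-box factor of the duct epithelium, was not called between the WT groups. It was at 13.22, 13.50, 10.91 and 10.82 FPKM in WT-veh and 3.43, 13.32, 9.67 and 7.95 FPKM in WT-DES. The αERKO-veh samples had 13.51, 13.89, 11.43 and 12.38 FPKM and the αERKO-DES samples 15.00, 16.18, 14.73 and 12.86 FPKM. WT-DES sample 1 was the lowest and WT-DES sample 2 lay within the WT-veh range. The difference in WT was −0.57 ± 0.25 in log2(FPKM + 1) with a limma adjusted p of 0.0492, but the ratio of means, 0.709, did not reach 1.5-fold, and without WT-DES sample 1 the values were −0.23 and 0.136. It was called under quantile normalization (−0.77), with length correction (−0.74) and without WT-DES sample 2. αERKO-DES was above WT-DES by 0.83 ± 0.25 (limma adjusted p 0.00683) and called, and without WT-DES sample 1 that difference was 0.50 and no longer reached 1.5-fold. The call was also lost at equal totals without the 20 most abundant genes (0.48, limma adjusted p 0.127).

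*Emx2*, a homeobox gene needed for the urogenital ducts, varied widely within groups. Its levels were 20.86, 28.23, 21.35 and 18.37 FPKM in WT-veh and 8.47, 23.94, 21.70 and 21.31 FPKM in WT-DES. They were 20.42, 9.49, 8.79 and 17.72 FPKM in αERKO-veh and 23.10, 20.69, 11.73 and 13.40 FPKM in αERKO-DES. All groups overlapped and no comparison was called. WT-DES differed from WT-veh by −0.30 ± 0.32 in log2(FPKM + 1) (95% confidence interval −0.99 to 0.39), which became 0.02 without WT-DES sample 1, and αERKO-veh differed from WT-veh by −0.69 ± 0.32 (limma adjusted p 0.132).

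In each of the 4 groups, the sample lowest in *Emx2* was also lowest in its divergent noncoding partner Emx2os, which starts 263 bases away on the opposite strand and overlaps it. Emx2os was at 4.08, 4.04, 3.62 and 2.70 FPKM in WT-veh, 1.27, 4.33, 5.00 and 5.74 FPKM in WT-DES, 2.91, 1.33, 1.05 and 2.43 FPKM in αERKO-veh and 3.25, 2.74, 1.51 and 1.61 FPKM in αERKO-DES. Over deviations from the group means of the 16 samples, the correlation of Emx2os with *Emx2* was 0.947, and 0.915 over 15 samples without WT-DES sample 1. In WT-DES samples 2 to 4 the order was reversed, with *Emx2* at 23.94, 21.70 and 21.31 FPKM against 4.33, 5.00 and 5.74 FPKM of Emx2os. For *Pax8* with *Emx2* the within-group correlation was 0.839, and 0.754 without that sample. In WT-veh the order ran the other way, with the lowest *Pax8* (5.47 FPKM) in the sample with the highest *Emx2* (28.23 FPKM). In αERKO-veh, samples 2 and 3 had the lowest levels of all 3 genes, and in αERKO-DES samples 3 and 4 did. These correlations are descriptions over samples that share a library each. Strand of counting is not known, so reads of *Emx2* and Emx2os may not be separable.

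**Figure D3:**
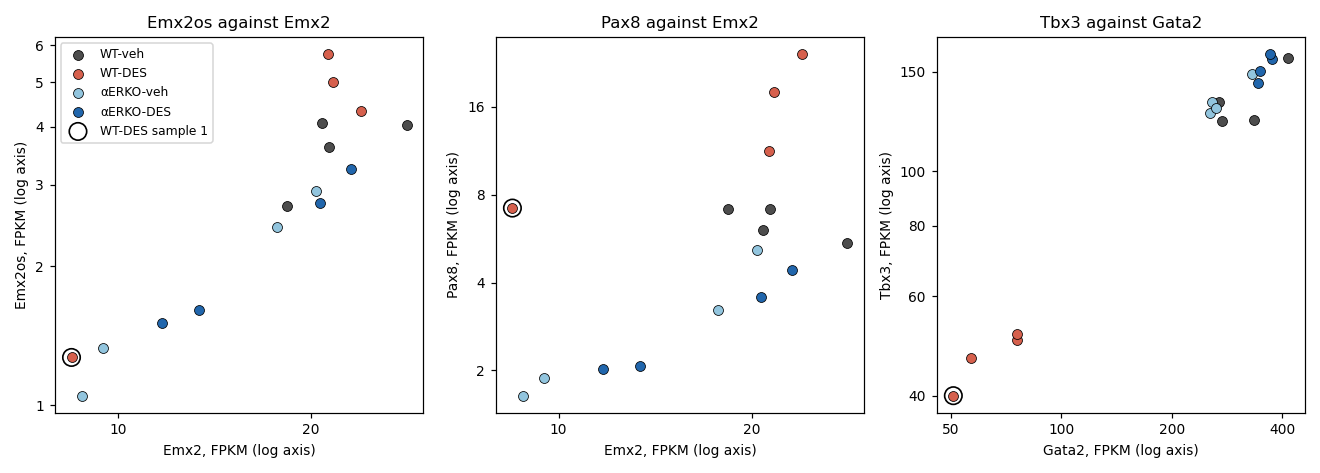
Each point is 1 of the 16 samples, coloured by group, with FPKM on log axes for Emx2os against *Emx2* (left), *Pax8* against *Emx2* (middle) and *Tbx3* against *Gata2* (right), and a ring around WT-DES sample 1. In the left panel Emx2os is higher in samples with more *Emx2*, in the middle panel the WT-DES points lie above the αERKO points at like *Emx2* levels, and in the right panel the 4 WT-DES samples form a separate group at no more than 75.65 FPKM of *Gata2*.

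*Lhx1*, a LIM homeobox gene required for the duct epithelium to extend, was listed at 0 in all 12 samples outside WT-DES. The WT-DES samples gave 0.03, 0.00, 0.01 and 0.01 FPKM. An exact two-sided permutation test over the 70 arrangements of the samples gave p = 0.143 for WT-DES against WT-veh (adjusted p 0.286 over 4 comparisons). With 3 of the 8 values above 0, all in WT-DES, this is the smallest p these values can give, so the test could not have passed. Its neighbour Lhx1os was listed at 0 in all samples.

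*Wt1* was higher in WT-DES, by much in 3 of its 4 samples. WT-veh samples had 5.21, 5.11, 3.85 and 4.16 FPKM and WT-DES samples 5.38, 11.51, 10.78 and 10.57 FPKM. With vehicle the αERKO samples had 4.42, 5.24, 3.42 and 4.31 FPKM, and with DES 4.62, 4.47, 4.87 and 4.66 FPKM. WT-DES sample 1 stood just above the other groups and far from its own. The rise was 0.88 ± 0.18 in log2(FPKM + 1) (limma adjusted p 3.87e-04), 2.09-fold in the ratio of means, and 1.11 without WT-DES sample 1. The difference between the genotypes was 0.79 ± 0.25 (limma adjusted p 0.0111), and under quantile normalization it was 0.43 and not called (0.189). Mesothelium, which expresses *Wt1*, had all 6 of its markers higher in WT-DES, with summed levels of 34.95 to 137.9 FPKM against 3.04 to 5.48 FPKM in WT-veh, and *Muc16* was at 0 in all αERKO-DES samples. Of the 6, 2 (*Lrrn4* and *Muc16*) passed the FPKM minimum through WT-DES alone. In that list WT-DES sample 1, at 137.9 FPKM, was the highest of its group while it was the lowest for *Wt1*. The list's part in the rise was not tested. The noncoding gene Wt1os, which starts 19 bases from *Wt1* on the opposite strand, was under the FPKM minimum, at 0.14, 0.14, 0.19 and 0.12 FPKM in WT-veh and 0.32, 0.55, 0.55 and 0.57 FPKM in WT-DES, with WT-DES above all other samples.

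*Msx2* rose in all 4 WT-DES samples, and sample 1 exceeded the rest. MSX2 is a BMP-responsive homeobox repressor known in the female tract for its place in the response of Müllerian epithelium to DES. Its levels were 1.89, 2.10, 1.91 and 2.59 FPKM in WT-veh and 22.15, 5.50, 4.47 and 5.14 FPKM in WT-DES. They were 2.15, 2.42, 2.16 and 1.68 FPKM in αERKO-veh and 2.49, 2.56, 1.95 and 1.89 FPKM in αERKO-DES, so no sample outside WT-DES passed 2.59 FPKM. The rise was 1.44 ± 0.33 in log2(FPKM + 1) (limma adjusted p 1.07e-03). Without WT-DES sample 1 it was 0.95 (4.82e-06). The genotypes differed by 1.38 ± 0.46 (limma adjusted p 0.0149), and by 0.83 under quantile normalization, where the call was lost (0.192). In the same sample the urothelial marker sum was 2089 FPKM, and the part of that list was not tested.

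*Msx1*, the paralog of *Msx2*, was not called in any comparison in the main analysis. It was at 10.89, 13.21, 10.64 and 11.98 FPKM in WT-veh and 5.21, 12.72, 21.56 and 13.64 FPKM in WT-DES. The αERKO groups had 8.65, 10.46, 6.42 and 10.75 FPKM and 10.60, 10.07, 7.20 and 8.91 FPKM with vehicle and DES. WT-DES held both the lowest and the highest sample of all. The difference in WT was 0.04 ± 0.28 in log2(FPKM + 1), with a 95% confidence interval of −0.57 to 0.64, and 0.39 without WT-DES sample 1 (limma adjusted p 0.0731). Without that sample *Msx1* was called lower in αERKO-DES than in WT-DES, at −0.71 (limma adjusted p 0.00321), as it was with all samples at equal totals without the 20 most abundant genes (−0.71, 0.0491).

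In αERKO mice DES moved none of the 9 tested factors past the thresholds by limma, 1 of them, *Gata2*, had an unadjusted p under 0.05, and none was called in any of the 28 alternatives. Over those alternatives the lowest limma adjusted p was 0.00384 for *Gata2*, 0.00525 for *Tbx3* and 0.0194 for *Gata3*, at changes under 1.5-fold. The share of all tested genes called in that comparison was 1.49%, with 0.0876% higher and 1.41% lower. Samples lay wholly above for 6.40% of all tested genes and wholly below for 6.57%, and for *Gata2* and *Gata3* they lay above. Between the DES groups 7 of the 9 were called, against 53.4% of all tested genes (23.7% higher and 29.6% lower), with *Gata2*, *Gata3*, *Tbx3* and *Pax2* higher and *Pax8*, *Wt1* and *Msx2* lower in αERKO-DES than in WT-DES. Samples did not overlap for 33.8% of all tested genes on the higher side and 32.7% on the lower side. These 2 comparisons share the αERKO-DES samples, and the second shares WT-DES with the comparison within WT. The change with DES differed between the genotypes for *Gata2*, *Gata3*, *Tbx3*, *Wt1* and *Msx2*, 5 of 9, where 56.4% of all tested genes were called, 29.6% higher and 26.9% lower.

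In mean FPKM, which is per length of transcript, the order in WT-veh was *Gata2* (323 ± 68.5), *Tbx3* (134 ± 16.7), *Gata3* (116 ± 10.2), *Emx2* (22.2 ± 4.23), *Pax2* (12.1 ± 1.45), *Msx1* (11.7 ± 1.17), *Pax8* (6.45 ± 0.83), *Wt1* (4.58 ± 0.68), *Msx2* (2.12 ± 0.33) and *Lhx1* (SD, n = 4). Only *Tbx3* and *Gata3*, and *Pax2* and *Msx1*, were neighbours whose samples overlapped. In WT-DES the order became *Gata2*, *Gata3*, *Tbx3*, *Emx2*, *Pax8*, *Msx1*, *Wt1*, *Msx2*, *Pax2* and *Lhx1*. There the first 3 overlapped as neighbours, as did each pair of neighbours from *Emx2* to *Pax2*. *Pax2* went from the fifth to the ninth place and *Pax8* from the seventh to the fifth. The place of *Pax2* under *Msx2* rested on WT-DES sample 1, at 3.43 against 22.15 FPKM. In the other WT-DES samples *Pax2* (7.95 to 13.32 FPKM) was above *Msx2* (4.47 to 5.50 FPKM). Both αERKO groups kept *Gata2*, *Tbx3*, *Gata3*, *Emx2*, *Pax2* and *Msx1* in the first 6 places, in the order of WT-veh, and had *Wt1* above *Pax8* by the means. In αERKO-veh *Tbx3* and *Gata3*, *Emx2* and *Pax2*, *Wt1* and *Pax8*, and *Pax8* and *Msx2* overlapped as neighbours, and in αERKO-DES *Emx2* and *Pax2*, and *Pax8* and *Msx2* did.

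The gene most like *Gata2* in log2(FPKM + 1) over the 16 samples, by Pearson correlation among all tested genes, was B3gnt7 (0.992), followed by *Tbx3* (0.992) and Slc2a10 (0.989). Within groups, over deviations from the group means, *Tbx3* came first for *Gata2* (0.854) and *Gata2* first for *Tbx3* (0.854), with 0.806 over 15 samples without WT-DES sample 1. For *Gata3* the nearest were Ppp1r13b (0.992), Shroom1 (0.992) and Dock3 (0.991), and within groups Eef2k (0.903). *Pax8* lay nearest to Khdc1a (0.973), Tmem243 (0.972) and 1700011H14Rik (0.970), and within groups to Kcnj16 (0.970), Tmed6 (0.967) and Acbd7 (0.963). *Emx2* lay nearest to Cr2 (0.919), Emx2os (0.902) and Defb42 (0.896), and within groups to Axin2 (0.952), a target of canonical WNT signalling. *Pax2* lay nearest to Pced1b (0.930), Rnf43 (0.916) and Rnf180 (0.915), *Wt1* to Nxph3 (0.958), Ddx58 (0.952) and Ifit3 (0.952), *Msx1* to Cdip1 (0.914) and *Msx2* to Chil1 (0.985), Trpv4 (0.983) and Cyp1a1 (0.981). The nearest genes were picked as the highest of all tested genes, which by itself gives high values. For Axin2 with *Emx2* the value without WT-DES sample 1 was not computed. Several within-group correlations between members rested on WT-DES sample 1. That of *Wt1* with *Msx2* went from −0.819 to −0.003 without it, that of *Pax2* with *Msx2* from −0.806 to 0.263 and that of *Pax2* with *Wt1* from 0.897 to 0.598, whereas *Gata3* and *Tbx3* went from −0.024 to 0.820.

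There were 32 paralogs of the members among the genes listed, and 12 of them passed the FPKM minimum, and in WT-DES 8 were higher and 1 was lower, with a median change of 0.94 in log2(FPKM + 1) over the 12, against −0.01 for all tested genes, of which 28.9% were called higher and 23.9% lower. The minimum fixed part of this, since 7 of the 12 passed it through WT-DES alone, 5 of them among the 8 that were higher, and the count and median over the list support nothing by themselves. *Gata5*, *Gata6*, *Tbx4* and *Tbx21* were among these 7, so the filter favoured a rise in each and their p-values are given with that limit. *Gata6*, the endodermal and cardiac GATA factor, was at 0.86, 0.70, 0.64 and 0.50 FPKM in WT-veh and 14.31, 2.53, 3.13 and 4.62 FPKM in WT-DES, a rise of 1.83 ± 0.34 (limma adjusted p 1.67e-04). *Gata5* went from 0.21, 0.37, 0.28 and 0.12 FPKM to 14.26, 1.02, 2.57 and 1.42 FPKM, a rise of 1.70 ± 0.44 (2.63e-03). Both were higher in every WT-DES sample than in any WT-veh sample while *Gata2* and *Gata3* were lower, and sample 1 was again the highest for both. *Gata4* was under the FPKM minimum, with means of 0 FPKM in WT-veh and 0.38 FPKM in WT-DES. *Gata4* was named after its values were seen. No called paralog turned direction in any alternative, and under quantile normalization 5 were called higher and 0 lower.

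Among the T-box genes *Tbx2*, the closest relative of *Tbx3*, fell with it. It was at 171.72, 179.55, 167.88 and 150.84 FPKM in WT-veh and 101.71, 57.37, 72.86 and 74.67 FPKM in WT-DES, a change of −1.14 ± 0.14 in log2(FPKM + 1) (limma adjusted p 2.93e-06), which was not called under quantile normalization. *Tbx21*, the T-box factor of T and NK cells, rose from 0.16 to 0.42 FPKM in WT-veh to 1.11 to 4.64 FPKM in WT-DES (1.43 ± 0.25, limma adjusted p 1.30e-04), beside 9 of 9 T cell markers that were higher. *Tbx4*, a limb and lung mesenchyme gene, rose by 1.14 ± 0.42 (limma adjusted p 0.0232), a call lost under quantile normalization and in a fit of the 2 groups alone, with 10.35 FPKM in WT-DES sample 1 and 0.62 to 1.73 FPKM in the other WT-DES samples. *Tbx15* passed the FPKM minimum through αERKO-veh alone, which favoured its call there. In that group it was at 0.46, 4.44, 6.83 and 3.52 FPKM, against 0.06, 0.03, 0.24 and 2.16 FPKM in WT-veh (1.51 ± 0.42, limma adjusted p 0.0198) and 0.06, 0.07, 0.00 and 0.04 FPKM in αERKO-DES. The summed level of 10 skeletal muscle markers ran with it, at 608.4, 1590, 2282 and 1426 FPKM in αERKO-veh and 481.7 to 684 FPKM in αERKO-DES, and WT-veh sample 4, the highest of its group for *Tbx15*, had 1892 FPKM. The αERKO-veh call was lost without any of WT-veh samples 1 and 3 and αERKO-veh samples 2 and 3. The list's part was not tested.

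**Figure D4:**
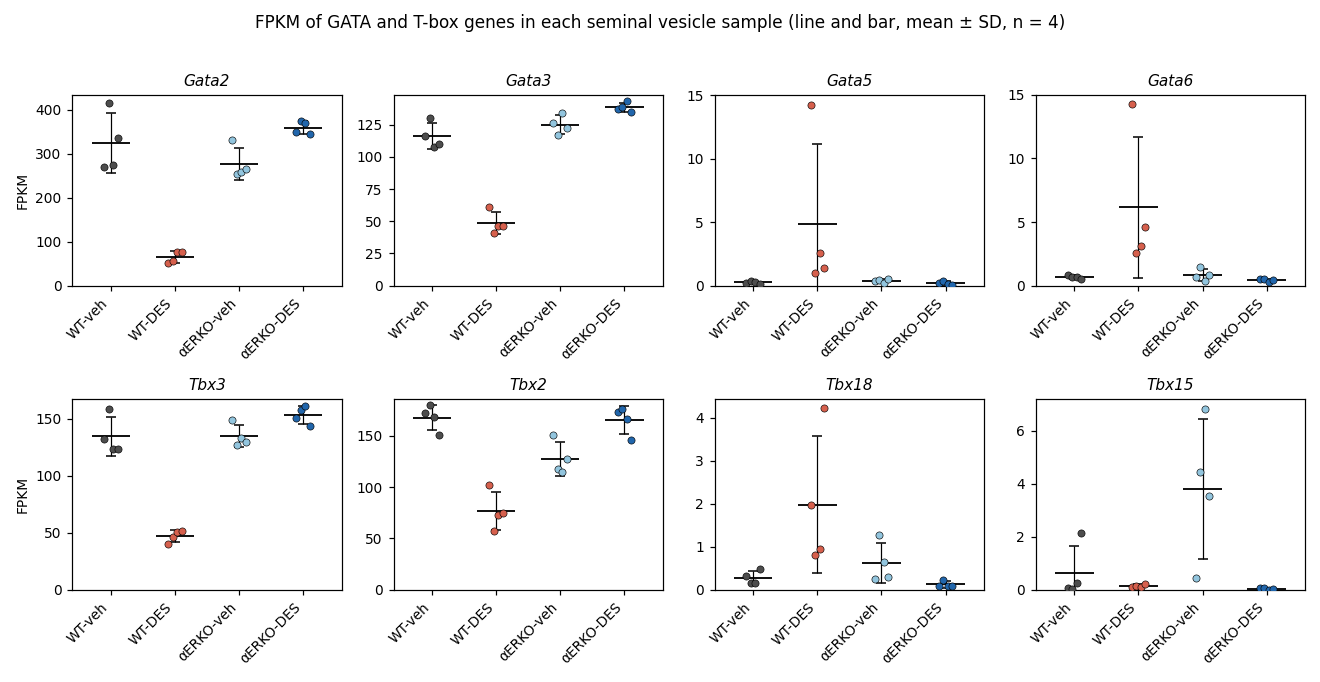
FPKM (vertical axis, linear from 0) of 4 GATA genes and 4 T-box genes in the 16 samples, with a line at each group mean and a bar of 1 SD on either side. *Gata2*, *Gata3*, *Tbx3* and *Tbx2* are lowest in WT-DES, *Gata5*, *Gata6* and *Tbx18* are highest there, and *Tbx15* is highest in αERKO-veh by the group means. *Tbx18* was added after its values were seen.

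The list of 35 other duct and urogenital transcription factors had 30 tested members, of which 17 were higher and 5 lower in WT-DES than in WT-veh, where 28.9% of all tested genes were higher and 23.9% lower, with a median change of 0.69 in log2(FPKM + 1). With equal totals without the 20 most abundant genes these counts were 19 and 2, and 79.2% of all called genes were then higher. Of the 30, 4 passed the FPKM minimum through WT-DES alone, and all 4, *Sall1* included, were among the 17. All 8 fibroblast markers were higher in the same comparison, and their part was not tested. Among those with large rises were *Foxf1*, a forkhead factor of gut and lung mesenchyme (1.76 ± 0.27 to 15.7 ± 16.3 FPKM, SD, n = 4), *Sall1*, a kidney and duct zinc finger gene (0.448 ± 0.026 to 5.74 ± 2.45 FPKM) and *Tcf21*, a mesenchymal bHLH factor (33.4 ± 2.41 to 114.6 ± 5.92 FPKM). *Foxf1* stood at 40.11 FPKM in WT-DES sample 1 and at 6.01 to 8.78 FPKM in the others. Those lower included *Zfpm1*, which encodes a cofactor of GATA proteins, *Cited2*, a transcriptional coactivator, and *Foxa1*, the pioneer factor of luminal epithelia. *Foxa1* was at 48.62 FPKM in WT-DES sample 1 and at 15.45 to 16.42 FPKM in the other 3, against 32.53 to 43.58 FPKM in WT-veh. Its call was lost under median-ratio scaling and without any of WT-veh sample 4 and WT-DES samples 2, 3 and 4.

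*Zfpm1* was lowest in WT-DES, as *Gata2* was. It was at 48.55, 50.55, 47.70 and 42.04 FPKM in WT-veh, 12.64, 11.46, 13.14 and 10.42 FPKM in WT-DES, 26.92, 28.03, 30.41 and 26.76 FPKM in αERKO-veh and 45.08, 47.65, 51.65 and 34.04 FPKM in αERKO-DES. Unlike *Gata2* it was called in αERKO mice too, lower in αERKO-veh than in WT-veh (−0.73 ± 0.11 in log2(FPKM + 1), limma adjusted p 0.00301) and higher in αERKO-DES than in αERKO-veh (0.64 ± 0.11, 0.0341), and both calls were lost when samples were set to equal totals without the 20 most abundant genes. *Cited2* and *Dach1*, a nuclear corepressor, were higher in αERKO-veh than in WT-veh, by 0.57 ± 0.15 (limma adjusted p 0.0173) and 0.65 ± 0.18 (0.0187), and leaving out αERKO-veh sample 2 ended both calls, as WT-veh sample 2 or αERKO-veh sample 3 did for *Cited2*. *Osr1*, a zinc finger gene of the urogenital mesenchyme, and *Foxf2* fell with DES in αERKO mice, by 1.31 ± 0.31 (limma adjusted p 0.0424) and 1.26 ± 0.26 (0.0351), and in WT both rose with DES. In the same αERKO comparison 4 of 7 adipose markers were lower, with summed levels of 97.71 to 1071 FPKM in αERKO-veh and 25.1 to 70.78 FPKM after DES, as were 6 of 10 skeletal muscle markers, and the part of these lists was not tested. The calls of *Zfpm1*, *Osr1*, *Foxf2* and *Tbx15* between αERKO-DES and αERKO-veh were all lost under quantile normalization, and without any of WT-veh sample 3, αERKO-veh samples 2 and 4 and αERKO-DES samples 1, 2 and 3.

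Of 28 duct signals and receptors 25 were tested, and 15 were higher and 1 lower in WT-DES, against 28.9% and 23.9% of all tested genes, with a median change of 0.80. Of the 25, 3 passed the FPKM minimum through WT-DES alone, *Gdnf* among them, and all 3 were among the 15. *Sfrp1*, which encodes a secreted WNT antagonist, rose from 10.2 ± 0.59 to 48.8 ± 3.43 FPKM (SD, n = 4), *Gdnf*, the ligand of the RET receptor in duct budding, from 0.473 ± 0.080 to 2.95 ± 1.03 FPKM, and *Esr1*, the oestrogen receptor gene, by 1.61 ± 0.19 in log2(FPKM + 1) (limma adjusted p 2.69e-06). *Amhr2*, the receptor of anti-Müllerian hormone, was the member that was lower, from 1.23 ± 0.58 to 0.533 ± 0.078 FPKM, and its call was lost under median-ratio scaling and without any of WT-veh samples 3 and 4 and WT-DES sample 2. In αERKO-veh *Gfra1*, the GDNF co-receptor, was higher than in WT-veh (0.52 ± 0.18, limma adjusted p 0.0463), a call that was lost under quantile normalization and without any single αERKO-veh or WT-veh sample, and *Esr1* was lower. None of the 25 was called between αERKO-DES and αERKO-veh by limma, where 1.49% of all tested genes were.

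**Figure D5:**
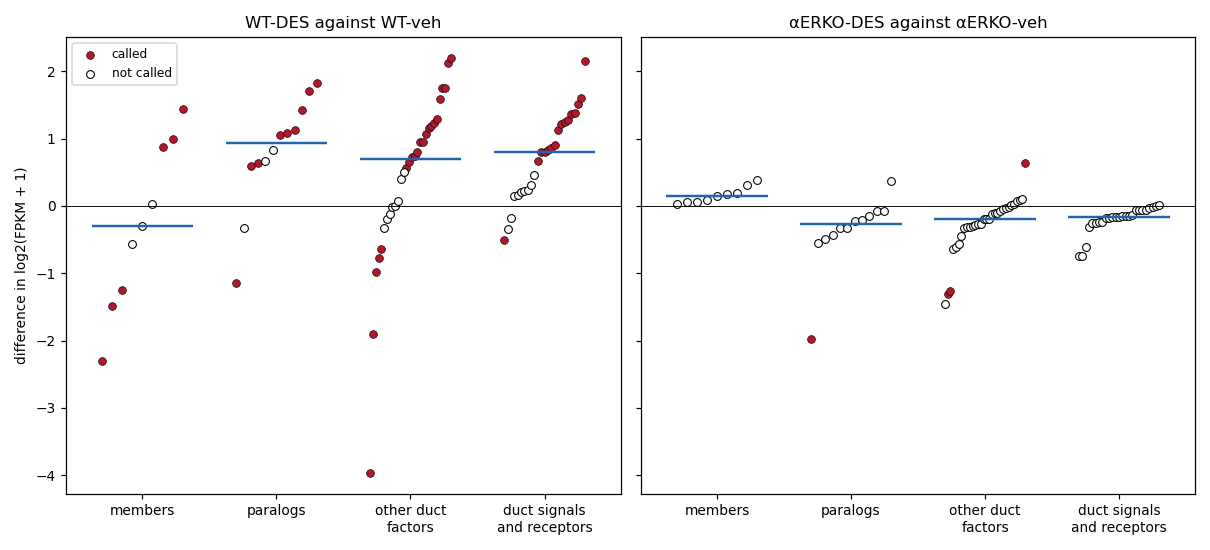
Difference in log2(FPKM + 1) (vertical axis) of each tested gene in the 10 members, their paralogs, the other duct factors and the duct signals and receptors, for DES in WT (left) and in αERKO (right), with filled points for called genes, open points for the rest and a line at each list's median. In WT the medians are −0.30 for the members and 0.94, 0.69 and 0.80 for the other lists, and in αERKO they lie between −0.27 and 0.15.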

How the data were processed

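Total RNA of 16 SV samples was sequenced as paired-end reads, aligned to mm10 with TopHat and assembled with Cufflinks by the authors, per the study's methods and the submitters' processing notes. The deposited values were FPKM per gene and sample. Fragment counts and hence depth were not known, which limits precision for low genes, and the annotation and strand setting are not given in the sources used here. All sample columns were used.

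Values were taken as log2(FPKM + 1) and 1 limma 3.58.1 model (R 4.3.3) with a mean-dependent variance trend was fitted to the 4 groups, over 15988 genes with a mean FPKM above 1 in a group. The 4 groups share 1 estimate of the spread per gene. Standard errors and intervals between the αERKO groups therefore also carry the spread of the WT-DES samples. A call required a ratio of mean FPKM of 1.5 or more beside a Benjamini-Hochberg adjusted p of 0.05 or less, or, for the difference of changes between genotypes, that size on the log2 scale. *Lhx1* was compared by exact permutation. The fit was run on simulated data with 200 changed genes in 1 group and the same spread in every group. These data have many more called genes and unequal spread, so that run does not cover them. Alternatives were another pseudocount or FPKM minimum, no fold minimum, a fit of 2 groups, sample weights, a replicate block, 4 other scalings or corrections, and leaving out each sample.

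The members and gene lists were chosen with earlier results of these data known. Named genes were the members, *Esr1*, overlapping or divergent neighbours of the members, up to 4 called genes per list and direction with the largest change, and the 3 genes most like each member, of which some are printed. A few genes that this rule names are not reported here. Positions are from GENCODE M21 (GRCm38), matched by symbol.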

Additional observations from a re-analysis of the deposited data

Results flagged for a closer look

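Within groups of 4, a sample counted as far from the others when its gap to the nearest, over the group's range, exceeded Dixon's critical value at the 95% level. Chance gives this in about 1 of 20 groups, and 6 of 61 gene and group pairs met it. In WT-DES sample 1 these were *Emx2* at 8.47 FPKM, *Wt1* at 5.38 FPKM, Wt1os at 0.32 FPKM and *Msx2* at 22.15 FPKM. The other 2 were *Gata2* at 329.87 FPKM in αERKO-veh sample 1 and 1700039E22Rik, which lies antisense to *Pax2*, at 1.11 FPKM in αERKO-DES sample 2.

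The change with DES differed between WT and αERKO mice, by limma's interaction term, for *Gata2* (−2.68 in log2(FPKM + 1)), *Gata3* (−1.40), *Tbx3* (−1.68), *Msx2* (1.38) and *Wt1* (0.79).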

How the results depend on the processing

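Of the members' values over all alternatives, 1170 kept their direction and side of the threshold, 14 gained a call, 15 lost one and 52 changed direction, none of those called. The cause was not tested. Sample weights came from an estimation that stopped before its convergence tolerance was reached. The count of members called in αERKO-veh against WT-veh went from 1 to 0 with no minimum on FPKM, with the replicate block, under quantile normalization, with equal totals without the 20 most abundant genes and with length correction, and ranged from 0 to 1 when single samples were left out. Deviations of same-numbered samples had r from −0.106 to 0.277. Differently numbered samples were not compared in this way, so whether the numbers give a pairing is not settled. The replicate block ended the *Pax8* call of αERKO-veh against WT-veh (limma adjusted p 0.0648).

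Values that turned direction were, in WT-DES against WT-veh, *Msx1* under quantile normalization (−0.059) and *Emx2* with equal totals (0.11). In αERKO-veh against WT-veh they were *Tbx3* with sample weights (−0.028) and length correction (−0.12), *Msx2* with median-ratio scaling (0.019), equal totals (0.11) and length correction (0.082), *Gata2* under quantile normalization (0.14) and *Wt1* with equal totals (0.083). In αERKO-DES against αERKO-veh they were *Pax8* with weights (−0.014) and equal totals (−0.040), *Msx1* with weights (−0.14), median-ratio scaling (−0.021) and equal totals (−0.090), *Gata3* under quantile normalization (−0.032), and *Wt1* (−0.017) and *Msx2* (−0.036) with equal totals. *Emx2* in αERKO-DES against WT-DES was 0.00011 with length correction, and the interaction of *Msx1* was −0.0092 with a pseudocount of 0.1 and −0.13 under quantile normalization.

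With single samples left out, *Emx2* ranged from −0.44 to 0.022 in WT-DES against WT-veh and from −0.40 to 0.076 in αERKO-DES against WT-DES. *Msx1* ranged from −0.23 to 0.39 in WT-DES against WT-veh, from −0.11 to 0.13 in αERKO-DES against αERKO-veh and from −0.26 to 0.36 for the interaction. *Msx2* ranged from −0.015 to 0.10 in αERKO-DES against αERKO-veh and from −0.058 to 0.060 in αERKO-veh against WT-veh. *Pax8* ranged from −0.11 to 0.29 in αERKO-DES against αERKO-veh, and in αERKO-veh against WT-veh *Tbx3* ranged from −0.043 to 0.088 and *Wt1* from −0.14 to 0.023.

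Over all genes, the number called in αERKO-veh against WT-veh was 1139, with 440 after length correction, 4150 without a fold minimum and 418 to 1691 with single samples left out. In αERKO-DES against αERKO-veh it was 239, with 401 at a pseudocount of 0.1, 118 with no minimum on FPKM, 133 with a mean FPKM above 5, 6 in a fit of the 2 groups, 1119 with sample weights, 5 under quantile normalization, 405 after length correction, 452 without a fold minimum and 1 to 653 with single samples left out.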
